A study of Saccharomyces cerevisiae with 24 samples.

Results

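The genes described here are the 9 cyclin genes that drive the budding yeast cell cycle, CLN1, CLN2, CLN3 and CLB1 to CLB6, and SIC1, which encodes an inhibitor of the cyclin-bound kinase. They were chosen by name, with earlier results of these data known. All 10 were among the 6575 open reading frames (ORFs) of the expression table, and all 10 had a mean of at least 1 TPM (transcript abundance scaled to gene length and to a fixed total per column), as did 5965 ORFs in all. The 2 chromatin tables held 9 of the 10 among their 4427 ORFs, and CLB6 was not analysed there.

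Saccharomyces cerevisiae cells of the haploid strain W303 (MATa, with the alleles ade2-1, can1-100, his3-11,15, trp1-1 and ura3-1 and a leu2 mutant allele, shared by all samples) were grown at 30 °C in rich medium to an OD600 of 0.8. They were sampled at 0 min, without cadmium, and at 7.5, 15, 30, 60 and 120 min after addition of 1 mM cadmium chloride. The labels list 12 RNA samples and 12 samples of chromatin digested with micrococcal nuclease (MNase), with 2 of each per time point. The MNase replicates are described as technical in the series text. No label names a cell cycle arrest or a synchronized culture, and no untreated culture was followed in parallel, so time in culture and time in cadmium cannot be told apart. Each deposited table has 1 column per time point that names no replicate, so a difference between columns has no replicate error and no test was possible. The errors given are counting errors alone. The RNA columns corresponded to 31543389 to 33946107 implied reads and the promoter columns to 653634 to 1050068 fragments. The mating type markers went with the label. The a-specific genes MFA1, MFA2, STE2, BAR1 and STE6 were at 131 to 1021 TPM at 0 min, and the alpha-specific genes MF(ALPHA)1, MF(ALPHA)2 and STE3 at 0.204 to 1.20 TPM. STE3, a pheromone receptor gene of alpha cells, stood at 11.3 TPM at 120 min, when 4 of the 5 a-specific genes were lower by a log2 difference of at least 1, as were 20.2% of all ORFs.

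Cyclins are unstable subunits that bind the cyclin-dependent kinase Cdc28 and turn it on in turn through the cycle. Cln3 acts in early G1 and leads to activation of the transcription factors SBF and MBF, which drive CLN1, CLN2, CLB5 and CLB6. Clb5 and Clb6 start DNA replication, Clb3 and Clb4 act in S phase and early mitosis, and Clb1 and Clb2, made late under Mcm1, Fkh2 and Ndd1, drive mitosis. Sic1 binds and inhibits Clb-Cdc28 until Cln-Cdc28 marks it for destruction through the ubiquitin ligase SCF-Cdc4, and its gene is transcribed at the end of mitosis.

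The loci are given on the R64 assembly, and each interval holds 1 ORF. CLN1 (YMR199W) lies on the plus strand of chromosome XIII at 662644 to 664284. CLN2 (YPL256C) lies on the minus strand of chromosome XVI at 64977 to 66614, and CLN3 (YAL040C) on the minus strand of chromosome I at 65778 to 67520. CLB1 (YGR108W) and CLB6 (YGR109C) are neighbours on chromosome VII, at 703636 to 705051 on the plus strand and at 705359 to 706501 on the minus strand. CLB2 (YPR119W) and CLB5 (YPR120C) are neighbours in the same arrangement on chromosome XVI, at 771653 to 773128 and 773875 to 775182. In both pairs a mitotic and an S-phase cyclin gene point towards each other, with 307 bp between the ORFs of CLB1 and CLB6 and 746 bp between those of CLB2 and CLB5. CLB3 (YDL155W) lies on the plus strand of chromosome IV at 176773 to 178056. CLB4 (YLR210W) and SIC1 (YLR079W) lie on the plus strand of chromosome XII at 562008 to 563390 and 286820 to 287674.

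Transcripts of all 9 cyclin genes fell after cadmium was added, each past a log2 difference of 1 at 1 or more time points, and the SIC1 transcript did not pass this threshold in either direction. CLN2, CLN1, CLB5 and CLB1 were the earliest to pass it. CLN1, CLN3, CLB1, CLB2, CLB3 and CLB6 were lower at each of the 5 steps between neighbouring time points, 6 of the 10 genes against 9.62% of the 5965 ORFs. Together the 9 cyclin transcripts summed to 1070 TPM before cadmium and to 568, 406, 338, 252 and 180.0 TPM after it, a sum 5.95-fold lower at the end. Changes are differences of log2(TPM + 1) from 0 min, which understate the change of weak transcripts such as CLB6. At 7.5 min 4 of the 10 genes were lower by at least 1, against 1.74% of the 5965 ORFs. At the 15, 30, 60 and 120 min points 7, 7, 8 and 9 genes were, against 12.6%, 16.7%, 18.5% and 20.2% of all ORFs. The median difference of the 10 genes was -0.72, -1.33, -1.96, -2.38 and -2.74 at the 5 treated time points, against -0.10, 0.11, 0.35, 0.44 and 0.34 for all ORFs. In RNA from a whole culture, fewer cells in a cell cycle phase and less RNA per cell cannot be told apart, and TPM is a share of the total, so it does not give transcripts per cell.

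**Figure D1:**
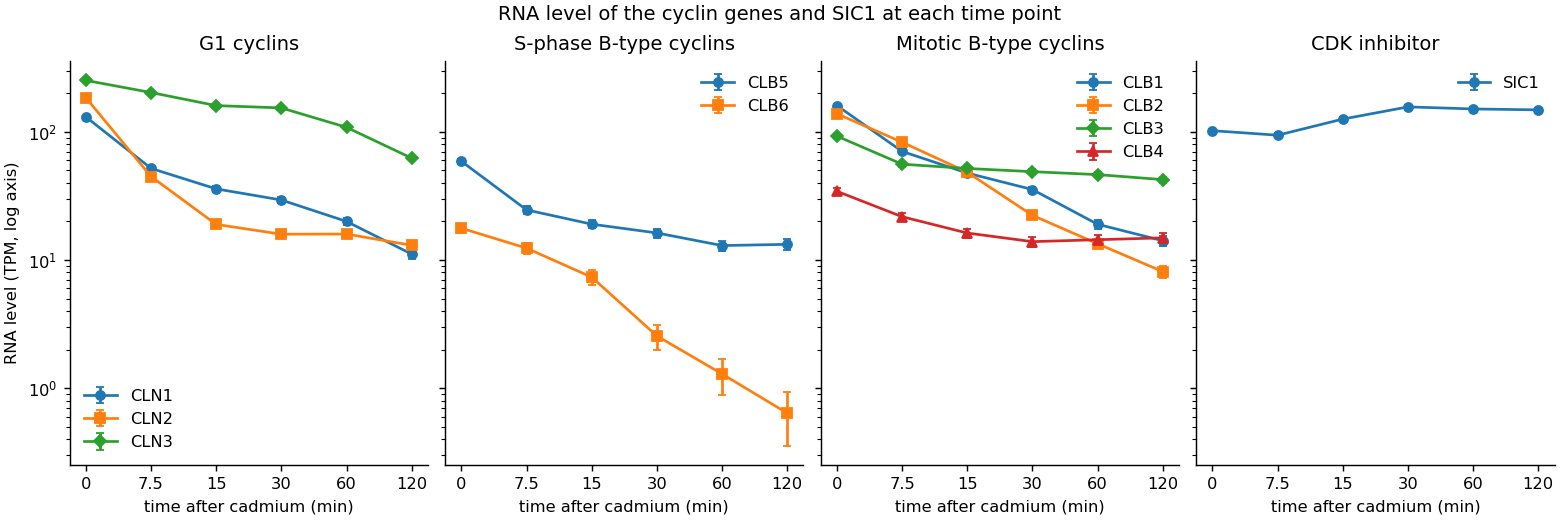
RNA level in TPM on a log axis at each time point (evenly spaced, in minutes after cadmium), 1 panel per role, with 1 deposited value per point and bars of the 95% counting error. All 9 cyclin transcripts end below their 0 min level, CLB6 as low as 0.639 TPM, and SIC1 stays between 94.1 and 157 TPM.

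Among the G1 cyclins, CLN2 had the steepest early fall of the 10 genes. It stood at 185, 44.8, 19.0, 15.9, 15.9 and 13.0 TPM at the 6 time points. By 7.5 min 81.5% and by 15 min 96.5% of the whole difference in TPM between 0 and 120 min was in place. The 7.5 min level was 4.12-fold lower than at 0 min (95% counting interval 3.93 to 4.32), the 8th largest drop of the 5965 ORFs on the log2 scale, at -2.02 ± 0.03 (counting error). Its paralog CLN1, which acts with CLN2 at the start of the cycle, went from 131 TPM to 51.9, 35.9, 29.4, 20.0 and 11.1 TPM. Its log2 differences were -1.32 ± 0.03 at 7.5 min and -3.44 ± 0.06 at 120 min. The order of the pair changed along the time course. The CLN2 level was 1.41 times that of CLN1 before cadmium (1.37 to 1.46), 0.529 times after 15 min (0.486 to 0.574) and 1.17 times after 120 min (1.03 to 1.33). How reads shared by paralogs were counted is not given in the sources used here, so levels within a paralogous pair are uncertain to that extent.

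CLN3, the upstream G1 cyclin, had a smaller and later difference than CLN1 and CLN2. It was at 252, 203, 160.2, 154, 109 and 62.3 TPM. The log2 difference was -0.31 ± 0.02 at 7.5 min and -0.65 ± 0.02 at 15 min, within the threshold, and first passed it at 60 min, at -1.21 ± 0.02. Its largest step between neighbouring time points was the last, -0.79 from 60 to 120 min, whereas for CLN2 it was the first. CLN3 made up 23.6% of the summed cyclin TPM at 0 min, 45.4% at 30 min, its highest share, and 34.6% at 120 min. CLN1 and CLN2 together made up 29.5% at 0 min and 13.4% at both 30 and 120 min.

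The S-phase cyclins CLB5 and CLB6 had different courses. CLB5 fell from 58.9 TPM to 24.6 TPM at 7.5 min, then 19.0, 16.3, 13.0 and 13.3 TPM, so the first step held 75.1% of the difference in TPM, and the last 2 levels were alike within counting error. Its log2 difference was -1.23 ± 0.05 at 7.5 min and -2.07 ± 0.07 at 120 min. CLB6, the weakest of the 10 transcripts at every time point, went from 17.7 TPM to 12.4, 7.35, 2.56, 1.29 and 0.639 TPM, lower at each step. Its implied reads went from 599 to 19, which makes the last value the least precise. The CLB6 level at 120 min was 27.7-fold lower than at 0 min with a counting interval of 17.6 to 46.4, the widest of the 10. The ratio of CLB5 to CLB6 was 3.33 before cadmium (3.04 to 3.65), 1.99 after 7.5 min (1.77 to 2.24) and 20.7 after 120 min (13.1 to 34.8).

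The mitotic cyclins CLB1 and CLB2 both ended more than 10-fold below their 0 min levels. CLB2 went from 138 TPM to 83.0, 48.4, 22.3, 13.4 and 8.13 TPM. Its decline was spread over all 5 steps, the largest of them -1.08 from 15 to 30 min. Its log2 difference at 120 min, -3.93 ± 0.08, was the largest of the 10 genes on this scale, for a level 17.0-fold lower (15.2 to 19.2). CLB1 went from 160.4 TPM to 70.4, 47.7, 35.5, 19.0 and 14.1 TPM, with -1.18 ± 0.03 at 7.5 min and -3.41 ± 0.06 at 120 min. CLB1 had the larger difference of the pair at 7.5 min. The CLB2 level was 0.863 times that of CLB1 before cadmium (0.833 to 0.893), 1.18 times after 7.5 min (1.12 to 1.24) and 0.575 times after 120 min (0.498 to 0.662).

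CLB3 and CLB4, which act between the S-phase and the mitotic cyclins, had the smallest differences among the cyclins at 120 min. CLB3 was at 92.6, 55.9, 51.8, 48.9, 46.4 and 42.4 TPM at the 6 time points. Its largest step was the first, -0.72, and it passed the threshold at 120 min alone, at -1.11 ± 0.04. CLB4 was at 34.4, 21.8, 16.2, 13.9, 14.4 and 14.9 TPM and was past the threshold from 15 min on, with -1.04 ± 0.07 at 15 min and -1.15 ± 0.07 at 120 min. With a pseudocount of 5 TPM in place of 1 the CLB4 differences were -0.89 at 15 min and -0.98 at 120 min, and that of CLB6 at 15 min was -0.88. CLB3 and CLB4 together held 11.9% of the summed cyclin TPM at 0 min and 31.8% at 120 min, while CLB1 and CLB2 went from 27.9% to 12.4%.

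SIC1 was at 102, 94.1, 126, 157, 151 and 148 TPM at the 6 time points. The level was above that at 0 min from 15 min on, and its log2 difference of 0.61 ± 0.04 at 30 min was the largest, within the threshold. The 30 min level was 1.53 times that at 0 min (counting interval 1.46 to 1.61). With the median of all ORFs subtracted, the SIC1 differences were -0.02, 0.19, 0.26, 0.12 and 0.19. The sign at 7.5 min depended on the scaling, with -0.12 as deposited and 0.02 after the columns were rescaled by their median ratio. For the cyclins that subtraction made the differences larger from 15 min on. At 120 min they ran from -1.45 for CLB3 to -4.27 for CLB2 relative to the median, and after rescaling CLN3 at 30 min and CLB3 at 30 and 60 min also passed the threshold.

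**Figure D2:**
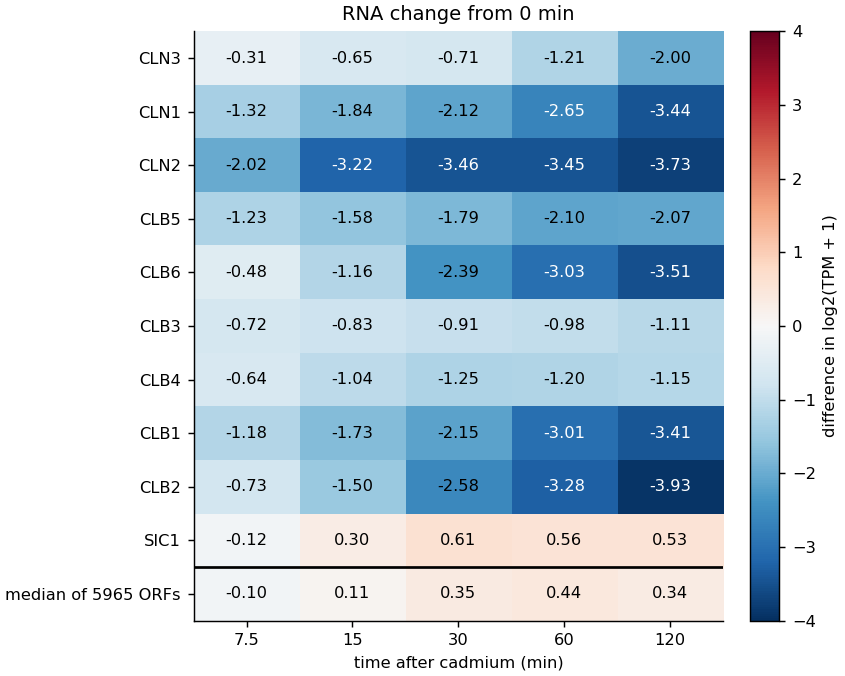
Difference in log2(TPM + 1) from 0 min for each gene (rows) and treated time point (columns, in minutes), with blue for lower and red for higher, and the median of 5965 ORFs in the bottom row. CLN2 is at -2.02 by 7.5 min, CLB2 ends lowest at -3.93, and the SIC1 row keeps within 0.61.

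The level of the inhibitor transcript relative to the transcripts of its targets was higher at each later time point. SIC1 stood at 0.203 TPM per TPM of the 6 CLB transcripts together before cadmium, and at 0.351, 0.660, 1.12, 1.40 and 1.59 after it. Against CLB5 and CLB6, the S-phase partners it holds back in G1, the same quotient went from 1.33 to 2.55, 4.77, 8.32, 10.6 and 10.7. These are quotients of transcript levels, and protein was not measured. Most of the rise against the 6 CLB transcripts came from their sum, which went from 502 to 93.5 TPM by 120 min. SIC1 itself ended at 1.45 times its 0 min level.

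The order of the 10 levels changed with time. At 0 min it ran CLN3, CLN2, CLB1, CLB2, CLN1, SIC1, CLB3, CLB5, CLB4 and CLB6, and all neighbours in it differed by more than the 95% counting error, as they did at 7.5 min. SIC1 was 6th in order before cadmium, 2nd for the next 2 time points and highest from 30 min on. At 30 min its 157 TPM and the 154 TPM of CLN3 were within that error. CLB2 with CLB1 at 15 min, CLB5 with CLN2 at 15 and 30 min and CLN1 with CLB1 at 60 min were within it too, as were CLN2, CLB4, CLB2 and CLB5 in that order at 60 min. At 120 min the order was SIC1, CLN3, CLB3, CLB4, CLB1, CLB5, CLN2, CLN1, CLB2 and CLB6. The 4 genes CLB4, CLB1, CLB5 and CLN2 lay between 13.0 and 14.9 TPM there, each within counting error of its neighbour.

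Small MNase fragments at promoters mark DNA protected by complexes smaller than a nucleosome, such as transcription factors. The count at CLN2 was 112, 46, 63, 75, 95 and 86 fragments at the 6 time points. The 7.5 min value was the lowest, and the later ones lay between it and the count before cadmium. Differences are of log2(count + 63), with the 10th percentile of all counts as pseudocount. At 7.5 min the CLN2 promoter had the most negative difference of all 4427, -0.68 ± 0.13 (counting error), with a count 0.411 times that at 0 min (0.285 to 0.584), against a ratio of 0.916 for the whole table. CLN2 also had the largest RNA difference of the 10 genes at that time. The promoters of CLN1, CLB1 and CLB5, the others past the RNA threshold then, ranked 245th, 1014th and 2128th from the lowest. None of the 9 genes reached a promoter difference of 1 at any time point. The pseudocount understates changes at low counts. CLB2, with 49 fragments at 0 min, could not be lower by 1 even without any fragments. The threshold of 1 was passed downwards by 0%, 0%, 0.0452%, 0.113% and 0.136% of the 4427 promoters and upwards by 0.0226%, 0.361%, 0.542%, 1.69% and 3%, in order of time.

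At 7.5 min 7 of the 9 genes had counts below those at 0 min, as did 70.8% of all promoters. CLN1 had 177, 129, 102, 148, 142 and 122 fragments, with the lowest count at 15 min. Its 15 min difference of -0.54 ± 0.12 was the 26th lowest of 4427. CLB1 had 215, 179, 183, 195, 163 and 155 fragments. CLB2 had few fragments throughout, with 49, 33, 52, 29, 37 and 22. The last count at CLB2 was lower than that of all but 0.136% of promoters. CLN3 had 138, 149, 151, 150, 145 and 111 fragments, so only the last count was below that at 0 min. CLB5 had 134, 121, 95, 133, 122 and 173 fragments, lowest at 15 min.

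The table as a whole gained fragments, with a total 1.47 times its 0 min value at 120 min and a median log2 difference of 0.40. Against that shift, 8 of the 9 genes lay below the median of all promoters at 120 min. The counts of CLN1, CLN2, CLN3, CLB1 and CLB2 were below their 0 min counts at that time, 5 of 9, against 7.12% of the 4427 promoters. Their differences, from -0.40 at CLB2 to -0.21 at CLN3, ranked between 49th and 122nd from the lowest. The 95% counting interval of the ratio to 0 min lay below 1 for CLN1 (0.543 to 0.873), CLB1 (0.583 to 0.890) and CLB2 (0.259 to 0.757) and reached above it for CLN2 (0.573 to 1.03) and CLN3 (0.621 to 1.04). The total of the promoter counts moved with time, and its part in these values was not tested.

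**Figure D3:**
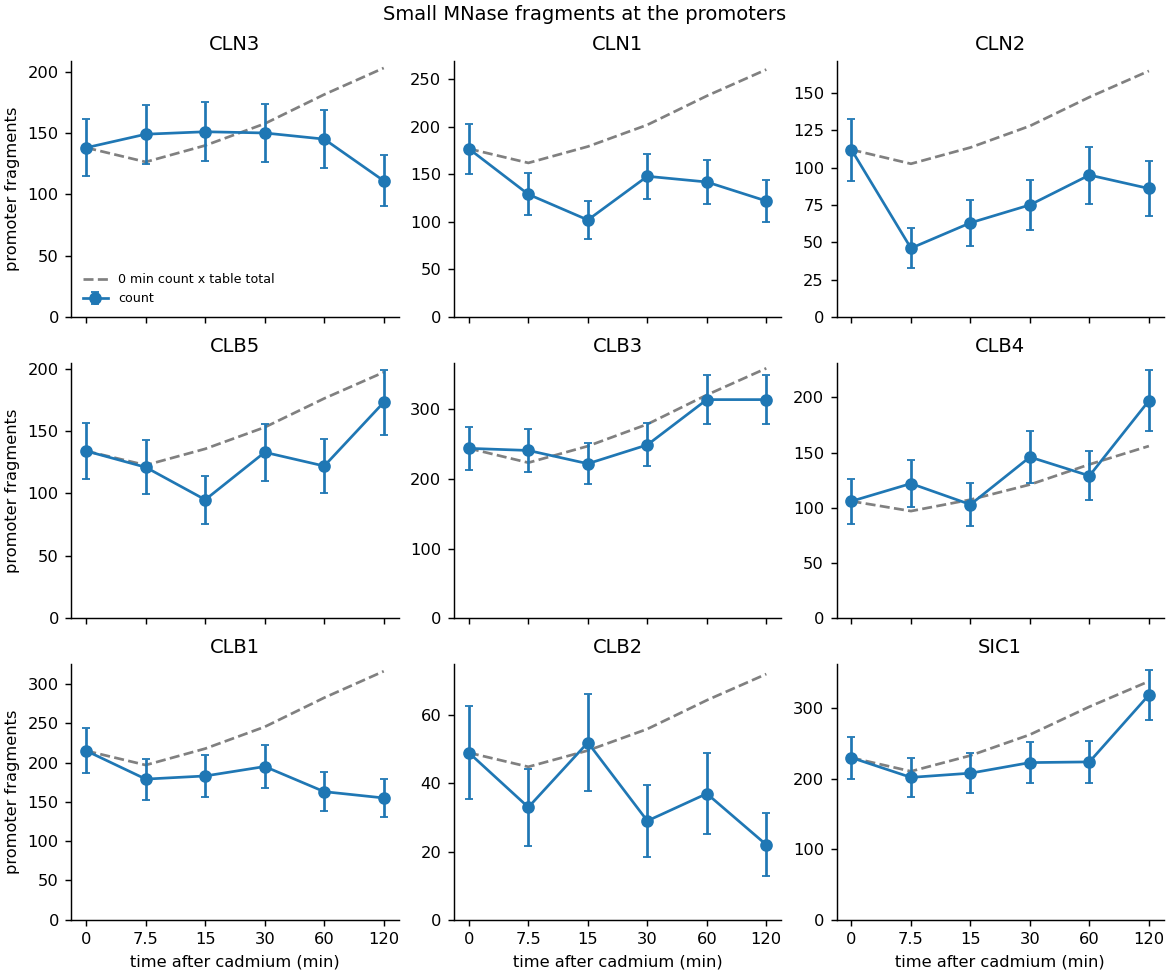
Count of small MNase fragments at 9 promoters at each time point (evenly spaced, in minutes), with bars of the 95% counting error; the dashed line is the 0 min count times the ratio of table totals. CLN2 goes from 112 to 46 fragments at 7.5 min, and at 120 min all but CLB4 lie under the dashed line.

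CLB3, CLB4, CLB5 and SIC1 had counts above those at 0 min at 120 min. CLB3 had 244, 241, 222, 249, 314 and 314 fragments, CLB4 106, 122, 103, 146, 129 and 197, and SIC1 230, 202, 208, 223, 224 and 319. The ratio to 0 min at 120 min was 1.86 for CLB4 (1.46 to 2.38), 1.29 for CLB3 (1.09 to 1.53) and 1.39 for SIC1 (1.17 to 1.65), of which CLB4 alone was above the 1.47 of the whole table. The SIC1 difference was -0.02 relative to the median of all promoters. CLB4 and SIC1 share their upstream regions with a gene on the other strand. The PNP1 gene starts 275 bp from CLB4 and had 114, 131, 113, 154, 135 and 204 fragments, at most 10 from CLB4 at every time point. BOS1 starts 260 bp from SIC1 and had 217, 197, 190, 217, 223 and 308 fragments. Within each pair the 2 counts ran together. PNP1, a purine nucleoside phosphorylase gene, went from 51.7 to 67.8 TPM between 0 and 120 min while CLB4 fell. BOS1, which encodes a membrane fusion protein of the secretory pathway, rose from 48.1 to 112 TPM at 60 min, a log2 difference of 1.20. At CLN2, CLB1 and CLB5 the next gene upstream is also on the other strand, at 1110, 3849 and 3400 bp. For CLN2 it is BBP1, with 269 promoter fragments at 0 min and 275 at 120 min. The BBP1 transcript had log2 differences of -0.90 at 7.5 min and -2.02 at 120 min. Its part in the CLN2 counts was not tested. The promoter windows are not stated, and a count at a shared upstream region cannot be assigned to 1 of the 2 genes.

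The entropy score of a gene body is higher where its nucleosomes are less regularly placed. Before cadmium, 6 of the 9 genes had high scores. CLN2 was at 7.18, above 97.8% of the 4427 ORFs, CLB2 at 7.15 (96.5%), CLB1 at 7.11 (94.4%), CLN3 at 7.04 (90.5%), CLB5 at 6.998 (88.2%) and CLN1 at 6.96 (85.9%), where the median of all ORFs was 6.61. SIC1 was near the middle at 6.72. CLB4 at 6.46 and CLB3 at 6.33 were in the lower part, above 23.4% and 8.13% of ORFs. CLB3 and CLB4, the cyclin genes with the smallest RNA differences at 120 min, were thus the 2 with the lowest scores at the start.

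After cadmium most of the scores were lower. At 120 min 8 of the 9 lay below their 0 min value, against 47.9% of all ORFs, and the median difference was -0.166 against 0.007. CLN2 was among the 8 with a difference of only -0.001. CLN3, CLB1, CLB2, CLB5 and SIC1 were below their 0 min values at all 5 treated time points, 5 of the 9 against 32.4% of all ORFs. In order of time 0, 1, 1, 1 and 3 of the 9 genes were lower by at least 0.2, against 4.04%, 10.8%, 10.4%, 10.5% and 12% of all ORFs. None was higher by that amount at any of these times, where 1.81%, 4.59%, 7.95%, 12.8% and 14.9% of ORFs were. No ORF scored above 7.235 at any time point. CLN2, CLB2, CLB1 and CLN3 started within 0.2 of that, so this comparison could not show a rise for them. The values for all ORFs were not matched for the score at 0 min. At that time CLN1, CLN2, CLN3, CLB1, CLB2 and CLB5 each stood above at least 85.9% of ORFs. The part of this high start in the lower later scores was not tested. The early gene lower by at least 0.2 was CLB5. At 120 min the 3 genes lower by that amount were CLN3, CLB5 and CLB2, with differences of -0.306, -0.229 and -0.215. CLB1 at -0.192 was just within the threshold. With the columns quantile normalized, the counts at 15 and 120 min were 0 and 5. The depth behind the scores is unknown.

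The courses differed between genes. CLB5 was at 6.998, 6.870, 6.784, 6.768, 6.793 and 6.769, so its score was low from 15 min on. CLN3 was at 7.039, 6.962, 6.997, 6.910, 6.862 and 6.733, with the largest difference at the end, as for its transcript. CLN2 was at 7.180, 7.072, 6.994, 7.093, 7.196 and 7.179. The CLN2 score was lowest at 15 min and back at its 0 min level by 60 min, while its transcript stayed 11.6-fold lower at 60 min. CLN1 was at 6.957, 6.958, 6.958, 7.016, 6.910 and 6.802, unlike its transcript, which was already 2.52-fold lower at 7.5 min. CLB1 was at 7.110, 7.018, 7.046, 7.044, 6.964 and 6.918, CLB2 at 7.152, 7.036, 7.107, 7.065, 7.032 and 6.937. SIC1 was at 6.720, 6.631, 6.649, 6.623, 6.569 and 6.554, with a difference of -0.166 at 120 min although its transcript was not lower. CLB3 kept between 6.258 and 6.336 and CLB4 between 6.362 and 6.461.

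**Figure D4:**
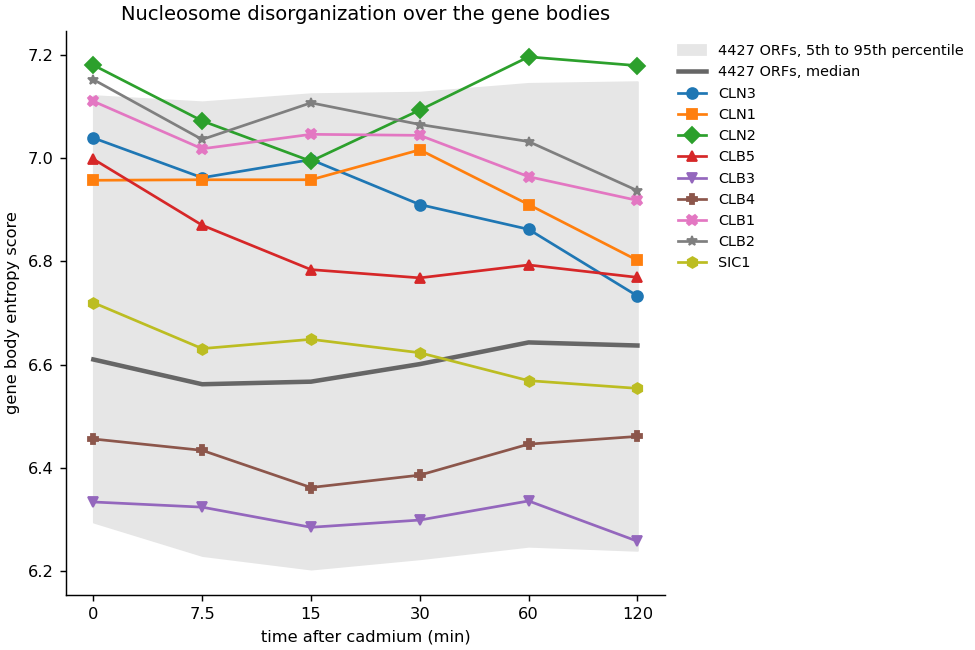
Gene body entropy score of 9 genes at each time point (evenly spaced, in minutes), with the median and the 5th to 95th percentile of 4427 ORFs in grey. The gene bodies of CLN1, CLN2, CLN3, CLB1, CLB2 and CLB5 start between 6.957 and 7.180, and the CLN2 line dips to 6.994 at 15 min and returns to 7.179 at 120 min.

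The genes that act on the cyclins were followed in lists of well-known members. CDC28, the kinase gene itself, went from 91.4 to 145 TPM by 120 min, a log2 difference of 0.66. Of the 6 genes for the kinase and its direct regulators, 2 were lower by at least 1 at 120 min and 1 was higher, against 20.2% and 33.8% of all ORFs. FAR1, which encodes an inhibitor of Cln-Cdc28 used in pheromone arrest, fell from 118 to 9.59 TPM, a log2 difference of -3.49. SWE1, the kinase gene that restrains Clb-Cdc28 before mitosis, fell from 64.9 to 15.3 TPM. CAK1, whose product activates Cdc28 by phosphorylation, rose from 18.0 to 50.9 TPM.

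Of 10 regulators of SBF and MBF, 3 were lower by at least 1 at 120 min, where 20.2% of all ORFs were, and the median was -0.52 against 0.34 for all ORFs. The core subunit genes SWI4, SWI6 and MBP1 were within the threshold throughout, with 120 min differences of -0.42, -0.61 and -0.05. NRM1, a corepressor of MBF and itself an MBF target, fell from 83.9 to 4.05 TPM. WHI3, an RNA-binding protein gene, and MSA2 each had a difference of -1.18. Of 14 targets other than the cyclins above, 1, 5, 8, 10 and 11 were lower by at least 1 in order of time, against 1.74%, 12.6%, 16.7%, 18.5% and 20.2% of all ORFs. Their medians were -0.47, -0.83, -1.31, -1.75 and -2.35. From 30 min on 1 of the 14 was higher, against 29.8%, 34.8% and 33.8% of all ORFs. The early one was PCL1, a cyclin gene of the Pho85 kinase, at 131, 41.6, 25.4, 23.5, 16.5 and 9.15 TPM. PCL1 also had a low promoter count at 7.5 min, 106 fragments against 173 at 0 min, the 15th lowest difference of 4427. NRM1, with an RNA difference of -1.02 at 7.5 min, went the other way. It had 254 promoter fragments then against 197 at 0 min, ranked 4332nd from the lowest. HO, the mating type endonuclease gene, fell from 103 to 2.39 TPM at 60 min. RNR1, the ribonucleotide reductase gene, followed another course, at 388, 522, 309, 128, 44.4 and 27.6 TPM.

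Most of the late cell cycle genes fell too. Of the 7 late regulators reported here, 1 was lower by at least 1 at 7.5 min (1.74% of all ORFs) and 7 were at 120 min (20.2%), with a median of -2.12. The early one was YOX1, a repressor gene of Mcm1 targets that include CLN3, at 91.7, 23.2, 15.0, 16.3, 13.9 and 10.9 TPM. Its promoter had 298 fragments at 7.5 min against 366 at 0 min, the 633rd lowest difference. The forkhead gene FKH1 fell from 80.0 to 16.0 TPM at 60 min and SWI5 from 89.3 to 17.1 TPM at 120 min. Of 10 further genes of the CLB2 cluster, 0, 2, 6, 7 and 8 were lower by at least 1 in order of time, beside all-ORF shares of 1.74%, 12.6%, 16.7%, 18.5% and 20.2%. The first 2 counts were near those shares. CDC5, the polo kinase gene, fell from 103 to 17.3 TPM by 120 min, CDC20, an activator gene of the anaphase-promoting complex, from 48.7 to 8.26 TPM, and CHS2, the septum chitin synthase gene, from 84.2 to 13.5 TPM. The median of the cluster was -0.17 at 7.5 min, where CLB1 was at -1.18 and CLB2 at -0.73.

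Of 12 genes for SCF, the anaphase-promoting complex and mitotic exit, 1, 2, 4, 4 and 4 were higher by at least 1 in order of time, against 3.3%, 18.3%, 29.8%, 34.8% and 33.8% of all ORFs, and 1 was lower, at 120 min. MET30, the F-box protein gene of the SCF form that also controls sulfur metabolism, rose from 64.7 to 862 TPM at 120 min. The cullin gene CDC53 rose from 60.7 to 271 TPM and the RING subunit gene HRT1 from 64.8 to 176 TPM. CDC4, the F-box protein gene of the SCF form that targets Sic1, was within the threshold, at 47.4 TPM at 0 min and 41.3 TPM at 120 min. CDC14, the phosphatase gene of mitotic exit, was the lower one, from 109 to 41.6 TPM. The Pho85 kinase and the transcriptional kinases have cyclins of their own. The Pho85 cyclin genes PCL1 and PCL2 were counted with the SBF and MBF targets, and had 120 min differences of -3.70 and -1.62. Of 12 genes for Pho85, its other listed cyclins and the transcriptional cyclins, none was lower by at least 1 at 120 min, against 20.2% of all ORFs. Higher by that amount were 6, against 33.8%. Among the 6 were PHO85 (146.5 TPM from 43.9 TPM), PCL6 (82.8 from 32.3) and PCL8 (51.5 from 18.7).

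**Figure D5:**
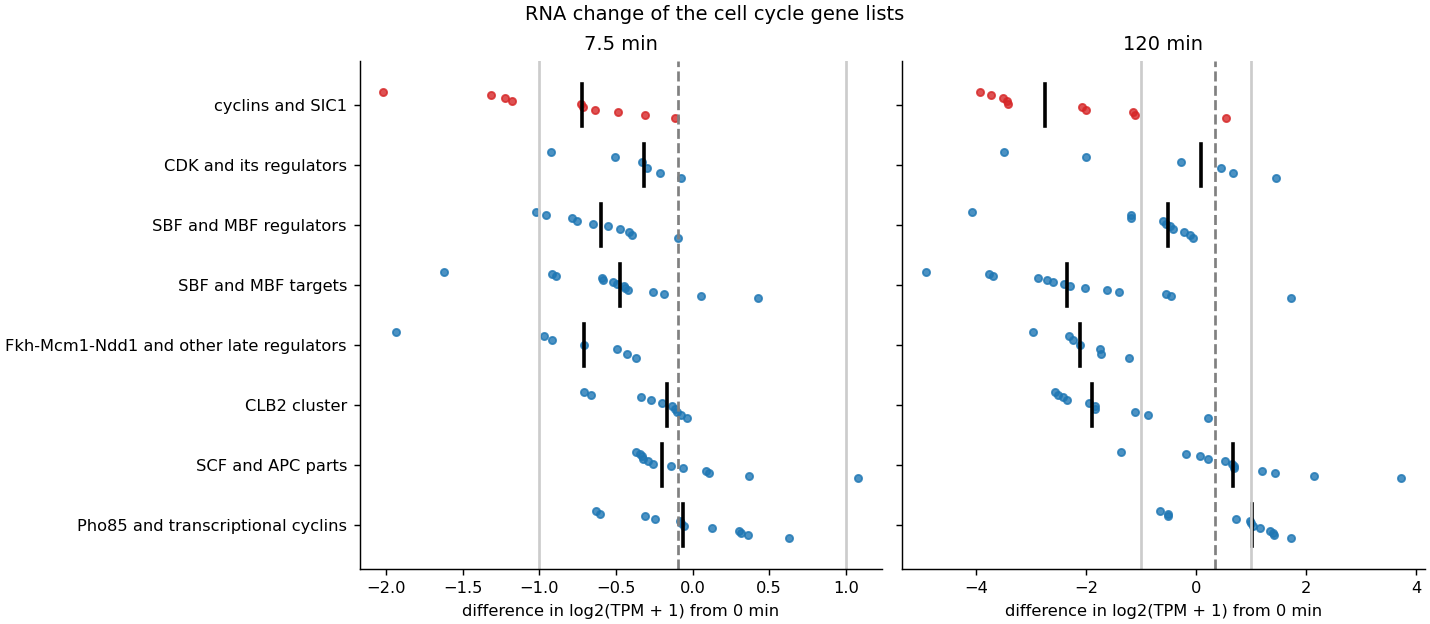
Difference in log2(TPM + 1) from 0 min at 7.5 and 120 min for the cyclins and SIC1 (red) and 7 cell cycle lists (blue), 1 point per gene, with black bars for list medians, a dashed line for the median of all ORFs and grey lines at -1 and 1. At 7.5 min CLN2 at -2.02 and YOX1 at -1.94 lie farthest to the left. At 120 min the SCF and APC list and the Pho85 list have medians of 0.67 and 1.01, where that of all ORFs is 0.34. The Pho85 list leaves out PCL1 and PCL2, which are among the SBF and MBF targets.

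The ORFs with the most similar course were searched among 5401 others with a mean of at least 10 TPM, by the root mean square difference of the 5 log2 differences. For CLN3 these were SUN4, a cell wall gene of septation, at 0.0738 and TIM23, a mitochondrial import gene, at 0.0791. For CLB3 they were the replication gene SLD5 at 0.0892 and WHI3 at 0.0915, and for CLB4 the condensin gene YCG1 at 0.0901 and the kinetochore gene DAD3 at 0.108. The course of CLN2 was matched least well, by IZH1 at 0.349 and GFD2 at 0.379. For CLN1 the closest were CYB5 at 0.283 and GIC1 at 0.314, and for CLB1 OLE1 at 0.275 and CYB5 at 0.276, although CLN1 and CLB1 were closer to each other, at 0.181. CLB2 was nearest to YBR238C at 0.165 and FAA4 at 0.216, CLB5 to PSY2 at 0.180 and the cohesion protector gene SGO1 at 0.229, and CLB6 to RPG1 at 0.161 and AIM20 at 0.173. Among the 10 genes, CLB6 and CLB2 were the closest to each other after CLN1 with CLB1 and CLB3 with CLB4, at 0.298.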

How the data were processed

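The members and the gene lists were chosen with earlier results of these data known. The authors deposited 3 tables with 1 column per time point, mapped by their headers to the labelled samples. Whether replicates were combined in a column is not given; the labels of the second RNA replicates name the expression table. The deposited expression values are TPM. The deposited promoter values are whole-number counts of small MNase fragments. The deposited gene body values are an entropy score. Bowtie 0.12.7 and the builds sacCer3 and R64 are named in the submitters' processing notes, without their role; windows, fragment lengths, the entropy formula and strand are not given in the sources used here. RefSeq (assembly R64) matched 5900 ORFs and all 10 members, and gave coordinates and coding lengths. From TPM and length, reads could be recovered as whole numbers within 0.02 read for 99.5% of values, and these implied reads gave counting errors and exact 95% ratio intervals. They cover counting error only. Calls needed a log2 difference of 1 (RNA, promoters) or an entropy difference of 0.2. The models planned for replicate columns were not run. Named genes were the 10 members, up to 3 ORFs per list with the largest RNA difference and the 2 most similar ORFs per member. Chromosomal neighbours of members (PNP1, BOS1, EMP46, BBP1) and the mating type markers were named too. CDC28, SWI4, SWI6, MBP1, CDC4, CDC14, PCL2 and BBP1 were named after their values were seen. Calculations used Python 3.11.15, numpy 2.4.6, pandas 2.3.3 and scipy 1.17.1 and were tested on simulated data. One list and 1 gene of another list are not reported here.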

Additional observations from a re-analysis of the deposited data

How the results depend on the processing

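No paired analysis was possible because the deposited columns carry no replicate numbers, and the leave-one-out alternatives were not run for the same reason. The counts of changed transcripts stayed within 1.5 times the reported values under pseudocounts of 0.1 and 5 TPM, no filter, a filter at 10 TPM and median ratio rescaling. The count of changed promoters was 0 at every time point and became 1 at 7.5 min (CLN2) with a pseudocount 10 times smaller. Entropy counts were less stable. With a threshold of 0.1 they were 3, 2, 2, 5 and 6 in order of time. With quantile normalization they became 0, 2 and 5 at 15, 60 and 120 min, and with the column median subtracted 0, 2 and 4. No called difference of a single gene changed sign under these alternatives. Of the 45 promoter differences, none of them past the threshold, 9 changed sign when the columns were divided by their median. Few reads limit the late CLB6 values, and few fragments those of CLB2.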

Other observations

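Chosen after the values were seen, the distance to the next coding gene upstream was set beside the chromatin values. CLN1, CLN2, CLN3, CLB1, CLB2 and CLB5 have at least 1000 bp upstream, as do 544 of the ORFs in the chromatin tables, and CLB3, CLB4 and SIC1 have less, as do 3880. The median entropy at 0 min was 6.77 for the 544 ORFs (quartiles 6.57 and 7.01) and 6.596 for the 3880 (6.456 and 6.78). The promoter count was below its 0 min value at 120 min in 14.2% of the first class and in 6.13% of the second, while the median promoter difference was 0.40 in both. The 6 cyclin genes with long upstream regions are those with entropy scores from 6.957 to 7.180 at 0 min, 4 of them above the upper quartile of their class, and 5 of the 6 had lower promoter counts at 120 min.

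EMP46, the next gene downstream of SIC1 at 241 bp, rose from 1.59 TPM before cadmium to 57.0 TPM after 120 min, a log2 difference of 4.48. Its part in the SIC1 values was not tested.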
